A study of Mus musculus with 4 samples.

Results

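Uninduced nephron progenitors of the embryonic mouse kidney were taken from single-cell profiles by their transcripts. A cell barcode counted as one where mitochondrial genes gave at most 10% of its counts and Cited1 gave at least 2 counts. Cited1, Six2, Crym, Spock2, Meox2 and Eya1 together had to give at least 3 counts, and the induction genes Wnt4 and Lhx1 had to give 0. The rule was met by 648 barcodes, of 12399 under the mitochondrial limit and 15144 in all. Counts are called UMIs (molecules tagged by the bead) below, although no source used here states that duplicates were collapsed, and intervals cover counting error only. The cells were thus chosen by their measured counts of 8 genes, and the levels of these genes are given as a description with no test.

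The series profiled kidneys at E14.5 by Drop-seq, a droplet method in which beads tag each cell's transcripts with a barcode and their 3' ends are read. Among its 4 libraries, 2 were labelled wildtype and 2 "Hoxa9,10,11 and Hoxd9,10,11 -/-", called mutant here. All 4 carried the strain label "mixed, mostly CD-1 and 129". The labels do not say how each gene was altered, nor whether a library held 1 embryo or several or whether libraries came from separate animals, so the spread behind a p-value is that of these libraries and may be no more than technical.

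Nephron progenitors form a cap of mesenchyme around each tip of the branching ureteric bud. They divide to renew themselves, and part of them is induced by Wnt signals from the bud to aggregate, become epithelial and form nephrons. Six2 holds progenitors in the undifferentiated state, Cited1 is a transcriptional co-regulator used as the marker of the most naive, uninduced cells, and Eya1, a phosphatase and co-activator, acts with Six2. Meox2 is a homeobox gene, Spock2 encodes a matrix proteoglycan and Crym a thyroid hormone binding protein, all used as cap markers. Wnt4 and Lhx1 are switched on as cells are induced. Genes of the Abd-B class of Hox clusters, numbered 9 and above, pattern the posterior body and act in the metanephric mesenchyme.

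Cited1 lies on chromosome X at 102247381 to 102252181 and Six2 on chromosome 17 at 85684277 to 85688274, both on the minus strand (mm10). The 250 bases before the RefSeq start site of each (GRCm38.p6, the first of 3 listed for Cited1) are shown because these genes are the marker that defines the cells and the regulator that holds their state. Capitals mark TATAAA, searched on both strands.
Cited1, chrX:102252182-102252431, minus strand: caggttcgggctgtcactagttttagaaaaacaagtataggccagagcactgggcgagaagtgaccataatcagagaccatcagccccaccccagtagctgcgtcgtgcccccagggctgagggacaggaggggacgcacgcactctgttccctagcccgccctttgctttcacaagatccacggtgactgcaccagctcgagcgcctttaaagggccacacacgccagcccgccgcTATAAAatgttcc
Six2, chr17:85688255-85688504, minus strand: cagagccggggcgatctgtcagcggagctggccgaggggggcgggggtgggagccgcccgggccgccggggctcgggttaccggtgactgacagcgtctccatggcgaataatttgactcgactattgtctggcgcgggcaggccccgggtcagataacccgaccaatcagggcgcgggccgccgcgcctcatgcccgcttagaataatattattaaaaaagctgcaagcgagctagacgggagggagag
The Cited1 window held TATAAA beginning 13 bases before the start site, and the Six2 window held none. TTTATNG, a core of the kind that Abd-B class Hox proteins prefer, matched the Cited1 window once on the opposite strand, overlapping TATAAA, and did not match the Six2 window. Over 32851 RefSeq windows of 250 bases, TATAAA occurred in 12.4% and TTTATNG in 9.81%, so neither match sets these windows apart. No measurement in these data bears on binding at them.

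Libraries differed in size and quality. Wildtype libraries held 2113 and 5542 barcodes with 9817486 and 24834658 UMIs, and mutant libraries 1061 and 6428 barcodes with 3572346 and 21350698 UMIs. Mitochondrial UMIs exceeded 10% in 7.76% and 9.06% of wildtype and in 19.6% and 29.1% of mutant barcodes. Of the barcodes removed by that limit, 0, 4, 0 and 0 met the rest of the rule. Median depths of kept barcodes were 3597 and 3475.5 UMIs in wildtype and 2465 and 3003 in mutant libraries. Few barcode sequences occurred in more than 1 library (1 shared by wildtype 1 and mutant 2, and 2 by wildtype 2 and mutant 2), and none of them was an uninduced progenitor.

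The targeted genes were looked at before any comparison. In all barcodes other than uninduced progenitors, Hoxa9 gave 125 and 119 CPM (counts per 1000000 UMIs) in wildtype and 140 and 162 in mutant libraries. The wildtype and mutant levels of Hoxa10 were 136 and 161 beside 94.9 and 127. Those of Hoxa11 were 17.0 and 56.2 beside 28.1 and 41.4, and those of Hoxd9 28.0 and 40.6 beside 52.6 and 47.5. Both mutant libraries lay above both wildtype ones for Hoxd10 (65.3 and 85.7 beside 37.8 and 38.6) and for Hoxd11 (118 and 197 beside 68.3 and 47.9). Transcripts of all 6 genes were thus counted in both mutant libraries. A 3' tag outside the altered bases checks nothing, so these levels do not test the genotype labels.

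Uninduced progenitors made up nearly the same share of both wildtype libraries and were almost absent from both mutant libraries. In wildtype 1, 181 of 1949 kept barcodes met the rule, a share of 9.29% (95% exact binomial interval 8.03 to 10.7), and in wildtype 2, 465 of 5040, a share of 9.23% (8.44 to 10.1). In mutant 1, 0 of 853 did (0 to 0.432), and in mutant 2, 2 of 4557, a share of 0.0439% (0.00532 to 0.158). Both mutant libraries lay below both wildtype libraries by far more than the spread between libraries of a genotype.

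**Figure D1:**
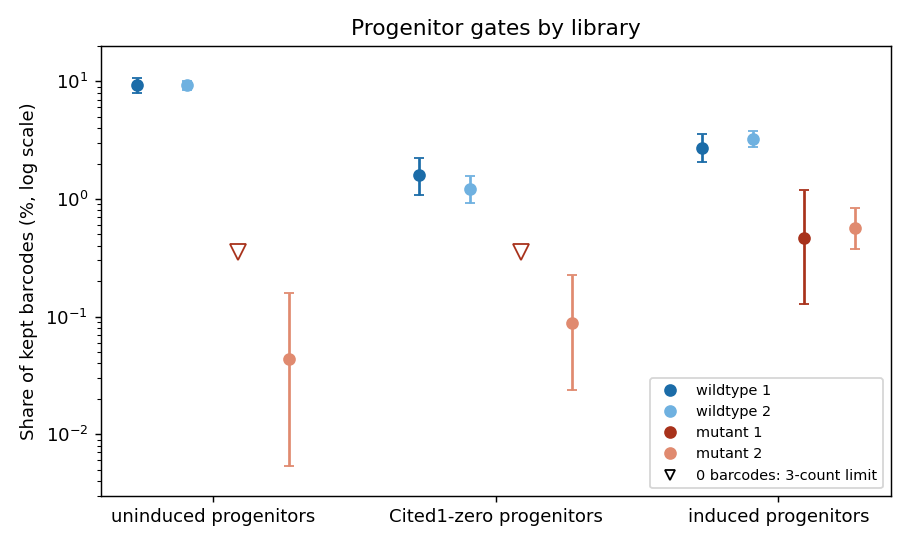
Share of kept barcodes (percent, log scale) gated as uninduced, Cited1-zero or induced progenitors in each of the 4 libraries, with 95% exact binomial intervals. Open triangles mark gates with 0 barcodes in a library and sit at the share that 3 barcodes would give, which is not a binomial limit. For uninduced progenitors the wildtype libraries sit at 9.29% and 9.23%, mutant 2 at 0.0439% and mutant 1 at 0 barcodes, and in each gate both mutant libraries lie below both wildtype libraries.

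Wildtype libraries averaged 9.26% ± 0.0429 (SD, n = 2) and mutant libraries 0.0219% ± 0.0310 (SD, n = 2). Over the libraries of a genotype this was 646 of 6989 against 2 of 5410 barcodes, a ratio of 250 with a counting interval of 68.9 to 2069. In edgeR's quasi-likelihood test on barcode numbers in 14 mutually exclusive gates, with kept barcodes as library size, the log2 fold change of mutant over wildtype was -7.87 (SE 0.68, Benjamini-Hochberg adjusted p = 9.05e-06). Of those gates, 35.7% passed. An exact two-sided permutation test over libraries gave p = 0.333, the smallest that 2 libraries against 2 allow. With every barcode thinned to 2000 UMIs before the rule was applied, which leaves out shallower ones, the shares were 6.02% and 6.0% in wildtype (87 of 1445 and 202 of 3366). In mutant libraries they were 0 of 502 and 0 of 2919, where 3 barcodes would have given 0.598% and 0.103%.

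Progenitors that lacked Cited1 counts were fewer in mutant libraries too. This gate asked for 0 UMIs of Cited1, at least 1 of Six2, at least 3 over Six2 and the other 4 markers, and 0 of Wnt4 and Lhx1. It took 31 and 61 wildtype barcodes and 0 and 4 mutant barcodes, or 1.40% ± 0.269 against 0.0439% ± 0.0621 (log2 fold change -4.25, SE 0.67, edgeR adjusted p = 0.000765). Induced progenitors were gated by at least 1 UMI of Wnt4 or Lhx1, at least 1 of Six2 or Cited1 and at least 3 over the 6 markers. They numbered 53 and 163 against 4 and 26, or 2.98% ± 0.364 against 0.520% ± 0.0719 (-2.47, SE 0.46, edgeR adjusted p = 0.00122). Of these, 19 and 58 wildtype and 1 and 4 mutant barcodes had at most 1 UMI of the ureteric and loop marker lists. The rest carried more, and the part of duct or loop cells in this gate was not tested. The size of the decline in these 3 gates was not compared by a test.

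Cited1 itself was rare in mutant barcodes, whatever the other criteria of the rule. At least 2 Cited1 UMIs were found in 208 (10.7%) and 598 (11.9%) wildtype barcodes and in 4 (0.469%) and 26 (0.571%) mutant barcodes. Among these, Wnt4 or Lhx1 was also detected in 12.5% and 20.1% of the wildtype barcodes, but in 4 of 4 and 20 of 26 (76.9%) of the mutant barcodes. Six2 was detected in 44.2% and 38.1% of the wildtype barcodes, in 1 of 4 in mutant 1 and in 0 of 26 in mutant 2. The mutant barcodes with at least 2 Cited1 UMIs had higher median depths, 12318.5 and 9196 UMIs against 5501.5 and 6710.5. Their gates were mostly loop and distal tubule or induced progenitor, which took 4 of 4 and 21 of 26. No mutant barcode carried more than 5 Cited1 UMIs, while wildtype barcodes reached 18 and 25 among uninduced progenitors.

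**Figure D2:**
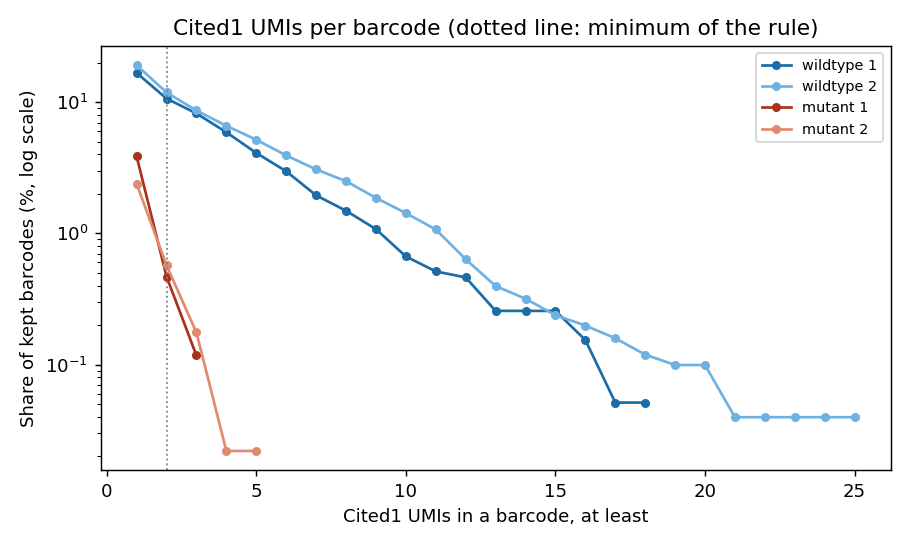
Share of kept barcodes (percent, log scale) with at least the number of Cited1 UMIs on the x axis, 1 line per library, with a dotted line at the minimum of 2 UMIs in the rule and the x axis ending at 25 UMIs. Both wildtype lines pass 10% at 2 UMIs, while both mutant lines are below 0.6% there and end at 3 and 5 UMIs.

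The 2 mutant barcodes that met the rule came from mutant 2 and carried few cap genes. The first held 7607 UMIs, with 2 of Cited1, 2 of Eya1 and 0 of Six2, Crym, Spock2 and Meox2, and 57 UMIs of erythroid, 10 of stromal, 7 of early nephron and 6 of podocyte markers. Osr1, Gas1, Itga8, Tpm2, Robo2, Meox1, Pax2, Wt1 and Sall1 were all at 0 in it. The second held 16491 UMIs, with 3 of Cited1, 1 of Crym and 0 of Six2, beside 87 UMIs of loop and distal tubule markers, 22 of early nephron, 21 of stromal and 19 of ureteric markers. It held 2 UMIs of Gas1 and 1 each of Itga8, Tpm2 and Pax2. With 0 and 2 cells, expression within uninduced progenitors was not compared between genotypes, and everything below concerns the 646 wildtype cells.

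Wildtype uninduced progenitors were deeper than the average barcode, with medians of 5186 UMIs and 2226 genes in wildtype 1 and 6061 UMIs and 2402 genes in wildtype 2. Depth ranged from 818 to 24027 and from 915 to 36676 UMIs. Mitochondrial genes gave a median of 3.03% and 2.75% of UMIs. A minimum count favours deep barcodes, so depth is partly set by the rule. Median Cited1 was 4 UMIs per cell in both libraries, with quartiles of 3 to 6 and 3 to 7.

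Of the 6 markers, Cited1 had the most counts, as the rule's minimum for this gene favours, and Six2 and Meox2 the fewest. Cited1 gave 719 and 715 CPM in wildtype 1 and 2, Crym 273 and 342, and Spock2 298 and 263. Eya1 gave 142 and 99.8, Six2 101 and 77.9, and Meox2 86.0 and 88.5. Because only 3' ends were counted these levels were not divided by transcript length, and capture can differ between genes, so the order is that of counts. Crym and Spock2 changed places between the libraries, as did Six2 and Meox2 in the share of cells with a UMI, so neither pair is ordered beyond the spread.

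Six2 was detected in fewer than 1 in 2 of these cells, although it defines the lineage. It gave a UMI in 44.8% and 39.4% of cells, Meox2 in 33.7% and 40.4%, and Eya1 in 49.7% and 41.1%. Crym was found in 69.1% and 81.7% and Spock2 in 74.6% and 71.0%. After thinning to 2000 UMIs (174 and 451 cells, 7 and 14 shallower ones left out), the shares were 19% and 11.8% for Six2, 11.5% and 14.4% for Meox2 and 26.4% and 15.1% for Eya1. For Crym they were 39.7% and 47.9%, and for Spock2 42.5% and 35.9%. Barcodes gated as endothelium, which should lack these genes, had median depths of 3574.5 and 3495.5 UMIs. Thinned in the same way (99 and 191 barcodes), they gave 0% and 0% for Six2, 1.01% and 1.05% for Meox2, 0% and 0.524% for Eya1, 0% and 1.57% for Crym and 0% and 1.57% for Spock2. These shares lay below those of the uninduced progenitors, but the gates partly set the gap. The same genes chose the uninduced progenitors, and barcodes that met a progenitor gate could not be gated as endothelium.

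All 5 other markers were detected together with Cited1 in 12 (6.63%) and 33 (7.10%) cells. None of them was detected in 7 (3.87%) and 10 (2.15%) cells, which met the rule on Cited1 alone. Most cells carried 2, 3 or 4 of the 5. The 6 markers summed to a median of 9 and 10 UMIs, with a maximum of 39 and 50.

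The other markers were counted on both sides of the rule's edge. Just inside, 39 and 109 cells carried exactly 2 Cited1 UMIs, with Cited1 at 407 and 360 CPM, Six2 at 73.1 and 71.0, Crym at 246 and 347 and Spock2 at 303 and 231. Just outside, 55 and 127 barcodes had 1 Cited1 UMI and a sum of at least 3, with Cited1 at 167 and 151, Six2 at 112 and 75.1, Crym at 234 and 326 and Spock2 at 328 and 284. Cited1 lay below Crym and Spock2 there. That order is partly set by the selection, since a sum of at least 3 beside 1 Cited1 UMI requires counts of the other markers. A further 10 and 41 barcodes would have met the rule but for 1 UMI of Wnt4 or Lhx1.

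Genes outside the rule were compared with the 6343 other wildtype barcodes, to ask what else sets uninduced progenitors apart from the rest of the kidney. Counts were summed per library and pool, and the 2 pools of a library were compared within that library. The comparison pool held every remaining cell type, Cited1-zero and induced progenitors included. Cells gated on co-expressed markers will differ in many genes, so the counts below describe a contrast that the gate partly sets. Of 13386 genes tested with edgeR, 3471 passed an adjusted p of 0.05 (25.9%), with 1540 higher (11.5%) and 1931 lower (14.4%) in uninduced progenitors. The median log2 fold change over all genes was 0.026. CPM values from here on are scaled by edgeR's TMM factors. The fit has 1 residual degree of freedom among libraries, with the spread shared across genes. Without the library as a block 118 genes passed, and DESeq2 called 1124, of which 1118 were among the 3471.

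The 12 genes with the largest differences among the higher ones were Ajap1, Pgf, Phf19, Dhx34, Meox1, Osr1, Sobp, Has2, Elavl4, Tpm2, Robo2 and Rspo3. Tpm2, a tropomyosin of the actin cytoskeleton, was the most abundant, at 504 and 587 CPM in the uninduced progenitors of wildtype 1 and 2 against 116 and 139 in other barcodes. Its log2 fold change was 2.09 (SE 0.06, adjusted p = 3.98e-233). In cells thinned to 2000 UMIs, Tpm2 was detected in 59.2% and 65.0% of uninduced progenitors and in 18.2% and 20.3% of other barcodes. Among the latter, endothelial barcodes gave 4.04% and 6.28%. Tpm2, which was not part of the rule, was thus more often detected in uninduced progenitors in both libraries, but was not confined to them.

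Robo2, the Slit receptor that limits the field of Gdnf expression in the kidney, gave 395 and 248 CPM against 91.5 and 63.5 (log2 fold change 2.03, SE 0.08). Osr1, a zinc finger regulator of the renal lineage that acts before Six2, gave 97.8 and 112 against 24.3 and 18.4 (2.38, SE 0.13). Rspo3, a secreted enhancer of Wnt signalling, gave 149 and 113 against 32.7 and 30.3 (2.02, SE 0.12). In each of these genes both libraries of uninduced progenitors lay above both libraries of other barcodes.

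Meox1, the close relative of the rule's Meox2, gave 60.0 and 62.3 CPM against 10.8 and 12.1, a log2 fold change of 2.40 (SE 0.17). Phf19, a Polycomb-associated protein, gave 66.9 and 49.3 against 10.4 and 9.88. Has2, a hyaluronan synthase, gave 96.9 and 71.6 against 18.0 and 17.3. Pgf, a growth factor of the VEGF family, gave 86.6 and 42.8 against 11.6 and 8.48. Ajap1, a junction-associated membrane protein, had the largest fold of the 12, at 71.2 and 42.2 against 8.76 and 5.30 (log2 fold change 3.0, SE 0.19). Elavl4, an RNA-binding protein best known from neurons, gave 73.7 and 71.6 against 17.4 and 15.6.

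The 12 largest among the lower genes were Rprm, Cdh16, Pou3f3, Tfap2b, Gata3, Cldn7, Mt1, Dpp4, Sostdc1, Emx2, Krt8 and Epcam, most of them genes of tubule or duct epithelium. Epcam, an adhesion molecule of epithelia, gave 12 and 25.1 CPM against 140 and 266 (log2 fold change -3.43, SE 0.12). Cdh16, the kidney epithelial cadherin, gave 2.57 and 2.79 against 46.3 and 63.4 (-4.42, SE 0.27). Emx2, a homeobox gene of the ureteric bud and early nephron, gave 12 and 8.37 against 110 and 126 (-3.69, SE 0.17). All 24 of these genes also passed in DESeq2, and 24 of 24 passed when cells were thinned to 2000 UMIs. Without the library as a block, 19 of the 24 passed.

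**Figure D3:**
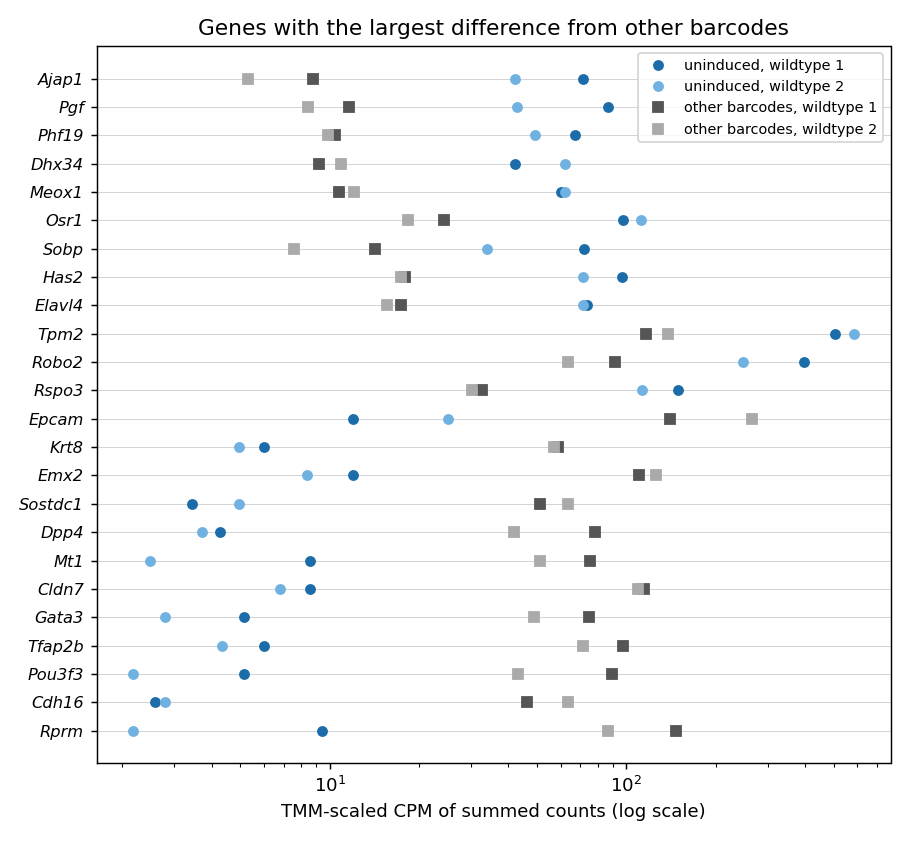
TMM-scaled CPM (log scale) of the 24 genes with the largest differences between uninduced progenitors (circles) and all other barcodes (squares) in wildtype 1 and 2. For each gene both circles lie on one side of both squares, from Ajap1 (71.2 and 42.2 against 8.76 and 5.30) to Rprm (9.43 and 2.17 against 147 and 86.9).

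Most known regulators of nephron progenitors were higher in these cells than in other barcodes. Of 30 listed, 29 were tested, and 17 were higher and 4 lower, beside 11.5% and 14.4% over all genes. Their median log2 fold change was 0.76 beside 0.026 over all genes. Gas1, a co-receptor for hedgehog ligands that also aids Fgf signalling in the cap, gave 236 and 465 CPM against 75.1 and 138 (1.72, SE 0.07). Itga8, the integrin through which the mesenchyme acts on Gdnf, gave 214 and 117 against 64.9 and 37.7 (1.67, SE 0.10). Uncx, a homeobox gene, gave 186 and 281 against 69.8 and 125 (1.25, SE 0.08). Each of these 3 was higher in both libraries, and within the uninduced progenitors Gas1 was higher in wildtype 2 and Itga8 in wildtype 1.

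Other regulators, named after their values were seen, differed less. Gdnf, the ligand that draws out the ureteric bud, gave 75.5 and 29.8 CPM against 38.9 and 18.2 (log2 fold change 0.83, SE 0.16). Sall1, a zinc finger repressor, gave 71.2 and 67.0 against 39.3 and 38.9. Pax2 gave 165 and 213 against 102 and 149, and Wt1 66.0 and 94.9 against 45.5 and 65.3, both transcription factors shared with other renal cells. The lower ones included Kdm2b (-1.05), Dach1 (-0.96) and Fgfr2 (-0.51). Fgfr2, a receptor for Fgf ligands, gave only 17.1 and 20.2 against 25.2 and 28.4, and was positive, at 0.42 and 0.057 with neither past the test, when cells were thinned to 2000 UMIs before or after gating.

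Of the targeted Hox genes, 5 of 6 were higher in uninduced progenitors than in other wildtype barcodes, beside 11.5% of all genes. Hoxa10 gave 288 and 281 CPM against 128 and 162 (log2 fold change 0.94, SE 0.07, edgeR adjusted p = 1.45e-37). Hoxd11 gave 134 and 97.4 against 64.1 and 48.2 (1.03, SE 0.11), and Hoxa9 153 and 181 against 118 and 119 (0.52, SE 0.08). Hoxd10 gave 56.6 and 62.0 against 35.5 and 38.8 (0.67, SE 0.14). Hoxd9 gave 21.4 and 34.7 against 26.3 and 40.8 (-0.25, SE 0.17, adjusted p = 0.289) and did not pass. Hoxa9, Hoxa10 and Hoxa11 lie on chromosome 6 between 52223100 and 52245810, and the Hoxd genes on chromosome 2 between 74679557 and 74700208 (mm10).

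Hoxa11 gave 37.7 and 123 CPM against 16.0 and 56.6 (1.15, SE 0.13), and the overlapping antisense transcript Hoxa11os 74.6 and 99.5 against 27.4 and 47.1. No source used here states strand-aware counting, so reads of this pair cannot be told apart with certainty. Of 9 other Hox transcripts tested, from a list that runs from group 7 to group 13, 6 were higher and 1, Hoxd8, was lower. Over all genes, 11.5% were higher and 14.4% lower. The median of the 9 was 0.82. Hoxd12 had the largest difference, at 29.2 and 42.2 CPM against 5.32 and 8.19 (2.39, SE 0.21), and Hoxc10 gave 214 and 220 against 107 and 122.

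Of 13 Wnt and beta-catenin targets tested, 0 were higher and 8 lower, beside 14.4% lower over all genes, with a median of -1.85. Any gene of the rule on this list stayed out of the test. With such genes kept, and before TMM scaling, the 17 measured list genes summed to similar levels. These were 920 and 1010 CPM in uninduced progenitors against 1052 and 1093 in other barcodes. DESeq2 called 0 higher and 3 lower. Lef1, a transcription factor of the pathway, was at 0 and 4.34 CPM in uninduced progenitors against 28.0 and 27.3, and Dkk1, a secreted Wnt inhibitor, at 3.43 and 4.34 against 30.3 and 46.3. Ccnd1, the G1 cyclin, gave 141 and 212 against 764 and 791 (-2.08, SE 0.06). Both libraries of uninduced progenitors lay below both libraries of other barcodes in these 3 genes.

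Of 14 Notch pathway genes, 8 were lower and 1, Hes1, was higher, beside 14.4% lower and 11.5% higher over all genes in edgeR. DESeq2 called 4 lower and 0 higher. Jag1, a Notch ligand, gave 5.14 and 6.51 CPM against 63.5 and 43.9 (-3.0, SE 0.22), and Notch1 18.9 and 14.6 against 52.9 and 37.1 (-1.40, SE 0.18). Among 12 BMP and Id genes, 7 were lower and 1, Bmp7, was higher (6 and 0 in DESeq2). Id2, an inhibitor of helix-loop-helix factors, gave 272 and 399 against 495 and 567 (-0.64, SE 0.06).

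Of 14 FGF response genes, 3 were higher and 2 lower, beside 11.5% and 14.4% over all genes, with a median of 0.09. Etv1 gave 34.3 and 22.0 CPM against 11.8 and 8.24 (log2 fold change 1.47, SE 0.22), Etv4 48.0 and 83.4 against 34.9 and 43.3 (0.80, SE 0.13), and Phlda1 98.6 and 140 against 62.9 and 83.8 (0.71, SE 0.10). Etv1 and Etv4 are ETS factors induced by FGF receptors. The feedback inhibitor Spry1 was lower, at 13.7 and 21.4 against 39.8 and 32.8 (-0.88, SE 0.18), as was Ccnd1, which is on this list too.

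Matrix, imprinted and metabolic genes were each split. Of 25 matrix and adhesion genes, 5 were higher and 16 lower. Cdh11, a mesenchymal cadherin, gave 394 and 332 CPM against 215 and 189 (0.84, SE 0.06), whereas the basement membrane laminin Lamb1 gave 38.6 and 30.1 against 131 and 95.8 (-1.70, SE 0.13). Among 13 imprinted growth genes, 4 were higher and 7 lower. Mest gave 1417 and 1272 against 956 and 777 (0.65, SE 0.05), and Igf2, a growth factor, 536 and 646 against 1087 and 988 (-0.78, SE 0.05). Of 19 glycolysis genes, 9 were higher and 1 lower (4 and 0 in DESeq2), with a median of 0.18. In the cell cycle lists, 6 of 30 S phase genes were higher (2 in DESeq2) and 5 of 30 G2 and M genes were lower (0 in DESeq2), with medians of 0.12 and -0.12. The G2 and M share is near the 14.4% lower over all genes, and 11.5% of all genes were higher.

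Immediate early genes and heat shock genes, which react to cell handling, were higher or lower in 5 and 5 of 14 and in 4 and 1 of 9 (1 and 1, and 3 and 0, in DESeq2). Over all genes, 11.5% were higher and 14.4% lower in edgeR. Of the 5 higher immediate early genes, 3 were higher in both libraries. The immediate early genes summed to 1495 CPM in the uninduced progenitors of wildtype 1 and to 296 in those of wildtype 2. The part of handling in any result was not tested. Between the uninduced progenitors of the 2 libraries, 230 of 3254 genes at 50 CPM or more differed by over 2-fold (7.07%).

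Markers of most other cell types were low in uninduced progenitors. Against other barcodes, lower genes numbered 9 of 10 for podocyte, 8 of 8 for proximal tubule, 8 of 8 for loop and distal tubule, 10 of 11 for ureteric bud and collecting duct, 10 of 10 for endothelium and 10 of 10 for immune cells, and none of these lists had a higher gene. DESeq2 called fewer podocyte (3) and proximal tubule genes (4) lower. The early nephron list had 8 of 13 lower. Over all genes, 14.4% were lower in edgeR. Defining genes were near 0: Pecam1 gave 0 and 2.48 CPM, C1qb 0 and 0.31, and Nphs1 0.86 and 0.31 in the uninduced progenitors of wildtype 1 and 2.

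**Figure D4:**
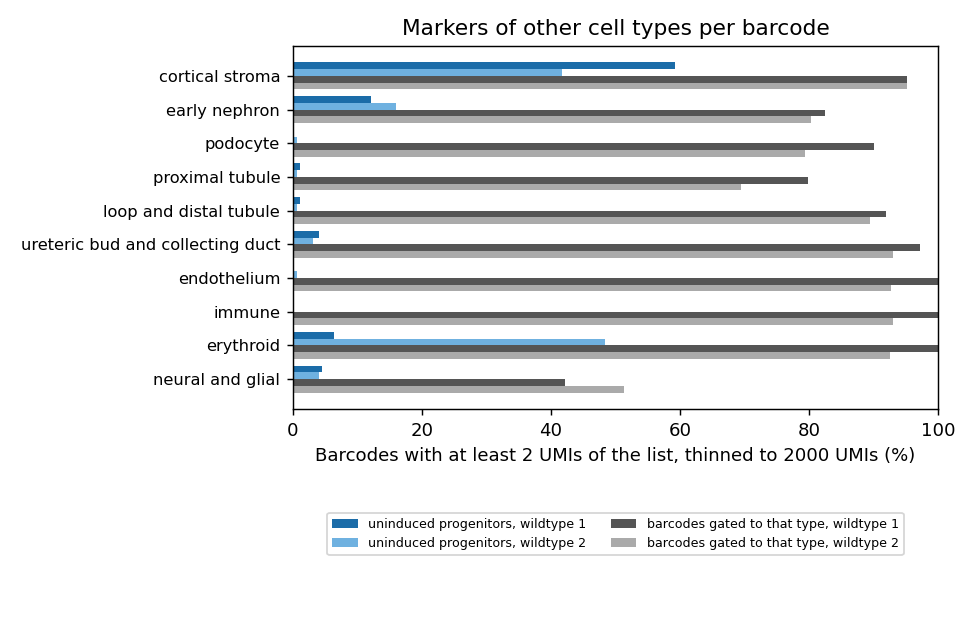
Share of barcodes (percent) with at least 2 UMIs of a cell type's marker list after thinning to 2000 UMIs, for uninduced progenitors (blue) and for barcodes gated to that cell type (grey), in wildtype 1 and 2. The grey barcodes were gated by the same list, so their shares are largely set by the gate. Uninduced progenitors stay under 5% for 7 of the 10 lists and reach 59.2% and 41.7% for cortical stroma, 12.1% and 16.0% for early nephron and 6.32% and 48.3% for erythroid markers.

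Stromal markers were detected at 2 or more UMIs in 59.2% and 41.7% of thinned uninduced progenitors, against 95.2% and 95.1% of barcodes gated as stroma. The latter were gated by this same list, so their shares are largely set by the gate. Meis2 alone gave a UMI in 72.4% and 53.9% of them. Without Meis2, the shares with 2 stromal UMIs were 20.1% and 17.5%. Meis2, a homeobox cofactor of Hox proteins, gave 754 and 445 CPM in uninduced progenitors against 392 and 244 (0.90, SE 0.06) and was the 1 higher gene of 17 stromal markers, of which 13 were lower. Over all genes, 11.5% were higher and 14.4% lower. Collagen genes were among the lower ones, with Col1a2 at 192 and 99.2 against 795 and 268 (-1.72, SE 0.07). Foxd1, the defining factor of cortical stroma, gave 31.7 and 16.1 CPM against 29.7 and 19.1 (-0.10, adjusted p = 0.774). The part of stromal RNA in the results was not tested.

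Of 9 erythroid markers, 5 were lower than in other barcodes, 3 of them in both libraries, beside 14.4% lower over all genes. They summed to 144 CPM in the uninduced progenitors of wildtype 1 and to 3633 in those of wildtype 2. Haemoglobin genes include near-identical copies, whose counts cannot be assigned with certainty. Of 6 neural and glial genes tested, 3 were higher (Elavl4, Nefl and Nefm) and 1, Stmn2, was lower, beside 11.5% and 14.4% over all genes. Nefl, a neurofilament subunit, gave 36.0 and 28.2 CPM against 4.55 and 5.93 (2.51, SE 0.23). Yet only 4.60% and 3.99% of thinned uninduced progenitors carried 2 UMIs of that list.

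Uninduced progenitors were next set against the 92 wildtype progenitors without Cited1 counts, to ask which genes differ between these gates within the cap. The gates differ in Six2 too, which only the Cited1-zero gate requires. It was detected in 100% and 100% of Cited1-zero barcodes and in 44.8% and 39.4% of uninduced progenitors. The part of Six2 in the differences cannot be told apart from that of Cited1. The 2 pools had like depths, with medians of 5611 and 5490 UMIs in the Cited1-zero pool, and a Cited1 count of 0 does not show that a cell lacks Cited1 RNA. Few genes separated them. Of 7784 tested, 28 passed edgeR's test (0.36%), with 11 higher (0.141%) and 17 lower (0.218%), while 496 had an unadjusted p under 0.05. DESeq2 called 3, the fit without the library block called 0, and cells thinned to 2000 UMIs before gating gave 1.

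Mest, an imprinted gene of growing mesenchyme, was higher in uninduced progenitors, at 1383 and 1211 CPM against 751 and 898 (log2 fold change 0.61, SE 0.09, edgeR adjusted p = 4.76e-07). Cdkn1c, an imprinted inhibitor of the cell cycle, gave 878 and 719 against 456 and 606 (0.52, SE 0.11, adjusted p = 0.00596). Fxyd6, a regulator of the sodium pump, gave 511 and 451 against 399 and 256, and Top2a, a topoisomerase of dividing cells, 512 and 394 against 378 and 230. Malat1, a nuclear RNA, gave 2086 and 1716 against 1513 and 1515. Hist1h2ag and Hist1h2ac were also higher, and copies of histone H2A genes are so alike that their counts are uncertain. Egr1, an immediate early gene, passed with 379 and 29.8 against 155 and 19.9, and wildtype 1 held 453 of its counts in the uninduced pool and wildtype 2 held 101.

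Lower in uninduced progenitors were Id2, at 265 and 379 CPM against 570 and 648 (-0.89, SE 0.12, edgeR adjusted p = 1.82e-08), and Ccnd1, at 137 and 202 against 440 and 287 (-0.99, SE 0.18, edgeR adjusted p = 0.00442). Pcp4, a calmodulin regulator, gave 10.9 and 36.0 against 62.2 and 102 (-1.73, SE 0.32). Fam132a gave 55.2 and 78.8 against 192 and 131 (-1.16, SE 0.23). Nme1 and Npm1, abundant genes of growing cells, differed by -0.42 and -0.24, and H19 by -0.52. The lower genes included 6 erythroid ones of 6 tested, beside a summed erythroid level that differs between the libraries. Only 2 of them were lower in both libraries, and DESeq2 called 2 erythroid genes lower. Id2 alone of the 13 named as largest also passed in DESeq2 (adjusted p = 0.0348).

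None of 26 tested progenitor regulators passed in this comparison, and 3 had an unadjusted p under 0.05, while DESeq2 called 0 of the 26. Itga8 gave 209 and 111 CPM against 161 and 54.0 (0.67, SE 0.21, adjusted p = 0.243), and Gdnf 73.6 and 28.3 against 98.4 and 62.6 (-0.78, SE 0.30, adjusted p = 0.509). Osr1 and Meox1, named after their values were seen, gave 95.4 and 107 against 119 and 59.7 and 58.6 and 59.3 against 36.3 and 39.8. Of the targeted Hox genes 0 of 6 passed in edgeR and 0 in DESeq2, with 0 at an unadjusted edgeR p under 0.05, and their median log2 fold change was 0.15 beside -0.004 over all genes. Hoxa10 gave 281 and 268 CPM against 259 and 227 (adjusted p = 0.935). A p that misses the threshold does not show that the pools were alike.

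The comparison with 216 induced wildtype progenitors asked which genes change as Wnt4 or Lhx1 appears. Of 10541 genes, 982 passed edgeR's test (9.32%), with 380 higher (3.6%) and 602 lower (5.71%) in uninduced progenitors. DESeq2 called 163, all among the 982, and the fit without the library block called 0, with 677 at an unadjusted p under 0.05. Induced barcodes were deeper, with medians of 11654 and 11149 UMIs. A single barcode gave 268158 of the 1045630 UMIs of the wildtype 1 pool, and another 325686 of 2469221 in wildtype 2. Without barcodes over 50000 UMIs, 52 and 160 induced barcodes remained and 691 of 10055 genes passed, 564 of which were among the 982. Many induced barcodes carried duct or loop markers, beside their greater depth, and the part of either in the results was not tested. After barcodes with more than 1 UMI of the ureteric and loop lists were left out, 19 and 58 induced barcodes remained and 34 of 8011 genes passed, 27 of which were among the 982. This filter was applied to the induced pool, and 42 of 181 and 147 of 465 uninduced progenitors also carried more than 1 such UMI. With these left out too, 139 and 318 uninduced progenitors remained and 39 of 6994 genes passed, 29 of which were among the 982.

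Tpm2, Itga8, Osr1, Meox1 and Gas1, already above the level of other barcodes, were also higher than in induced progenitors. Tpm2 gave 509 and 571 CPM against 146 and 235 (log2 fold change 1.5, SE 0.11), and Itga8 217 and 113 against 67.8 and 50.5 (1.39, SE 0.16). Shisa3, a membrane protein that dampens Wnt and FGF receptors, gave 321 and 309 against 94.7 and 136 (1.42, SE 0.13). Osr1 gave 98.8 and 109 against 38.1 and 41.7 (1.38, SE 0.19), Meox1 60.6 and 60.6 against 19.5 and 22.8 (1.49, SE 0.24), and Gas1 238 and 453 against 105 and 277 (0.89, SE 0.12). The regulators had 11 of 28 higher and 5 lower, beside 3.6% and 5.71% over all genes, with a median of 0.44. But DESeq2 called 4 higher and 0 lower, and 1 of 26 was higher and 0 lower without barcodes carrying duct or loop markers.

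Early nephron genes were lower, as 8 of 12 tested passed, beside 5.71% lower over all genes, and none was higher. This list also holds Wnt4 and Lhx1, which define the gates, so the levels of genes expressed with them are partly set by the gates. DESeq2 called 5 of the 12, and 3 of 10 passed without barcodes carrying duct or loop markers. Ccnd1 gave 142 and 206 CPM against 1060.3 and 654 (-2.20, SE 0.11), Jag1 5.20 and 6.33 against 91.9 and 51.3 (-3.38, SE 0.30), and Pax8, a transcription factor of the renal epithelial lineage, 14.7 and 31.4 against 64.1 and 79.8 (-1.57, SE 0.22). Notch1 gave 19.1 and 14.2 against 60.4 and 38.5, and 5 of 11 Notch genes were lower (1 in DESeq2, 1 of 7 without barcodes carrying duct or loop markers, and 0 of 5 when thinned after gating). Lef1 was at 0 and 4.22 against 27.9 and 24.0. Each of these genes was lower in both libraries.

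The 12 largest among the lower genes belonged mostly to duct and tubule epithelium. They included Cldn4, Pdzk1ip1, Cldn8, Cdh16, Wfdc15b, Cldn3, Krt7, Krt18, Krt8, Gata3 and Rprm. Of the ureteric list 8 of 8 and of the loop list 5 of 5 tested genes were lower, beside 5.71% over all genes. Krt8 gave 6.06 and 4.83 CPM against 55.7 and 151. Of the 24 genes named as largest in both directions, 22 passed in DESeq2, but 4 passed once the barcodes with duct or loop markers were left out. Thinned to 2000 UMIs, 0 passed when thinned before gating and 1 when thinned after it.

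In the comparison with that smaller induced pool and all uninduced progenitors, genes were named after their values were seen. Itga8 stayed higher in uninduced progenitors, at 211 and 112 CPM against 88.5 and 49.1 (log2 fold change 1.22, SE 0.26, adjusted p = 0.00123). Tpm2 gave 496 and 566 against 293 and 368 (0.66, SE 0.14), Shisa3 312 and 307 against 157 and 196 (0.75, SE 0.17), and Mest 1393 and 1227 against 967 and 806 (0.58, SE 0.10). Cdc42ep3 and Fxyd6 were higher as well. With both pools filtered, Itga8 (1.39), Tpm2 (0.76), Shisa3 (0.82) and Mest (0.65) still passed. Osr1 gave 96.1 and 108 against 88.5 and 67.0 (0.51, SE 0.27, adjusted p = 0.978) and Gas1 232 and 449 against 150 and 433 (0.18, SE 0.15, adjusted p = 0.996), so neither passed.

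Lower in it were Ccnd1, at 138 and 205 CPM against 715 and 511 (-1.70, SE 0.14), Jag1, at 5.06 and 6.28 against 54.5 and 49.1 (-3.08, SE 0.51), and Pcp4, at 11.0 and 36.5 against 150 and 136 (-2.38, SE 0.29). With both pools filtered, Ccnd1 (-1.89), Jag1 (-3.97) and Pcp4 (-2.29) passed too. Hoxb7, one of the ureteric markers used to filter the induced pool, passed when the induced pool alone was filtered.

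**Figure D5:**
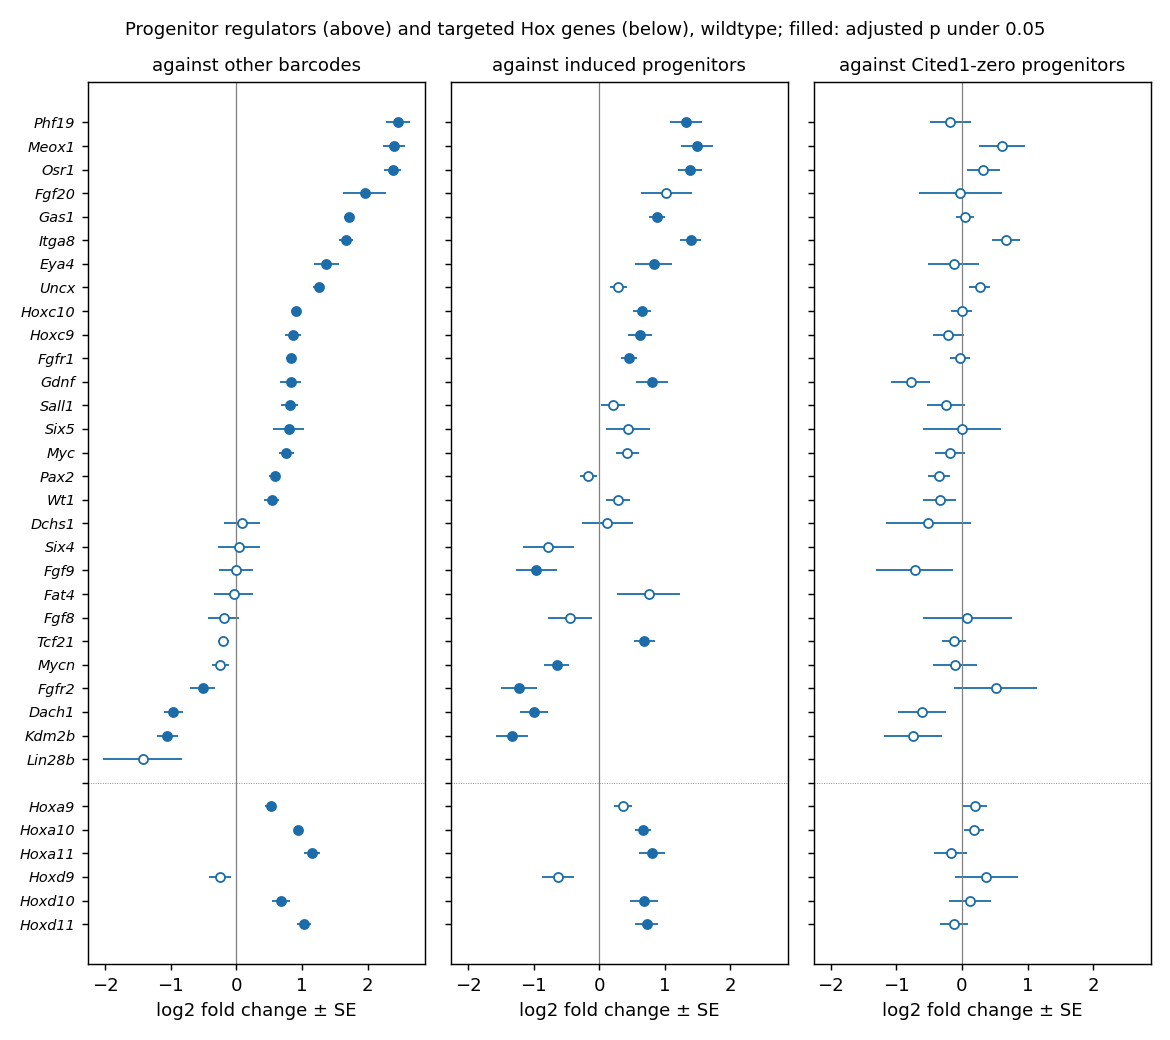
Log2 fold change with its SE of the progenitor regulators, 1 of them not drawn (above the dotted line) and targeted Hox genes (below it), in uninduced progenitors against other barcodes, induced progenitors and Cited1-zero progenitors of the wildtype libraries, with filled circles for an edgeR adjusted p under 0.05. Filled circles are frequent in the first panel (17 higher and 3 lower regulators drawn), fewer in the second (11 and 5) and missing from the third.

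Of the targeted Hox genes, 4 of 6 were higher than in all induced barcodes in edgeR, beside 3.6% of all genes, and 0 in DESeq2. Hoxa10 gave 291 and 274 CPM against 163 and 188 (0.67, SE 0.13), Hoxd11 135 and 94.7 against 71.5 and 63.3 (0.72, SE 0.17), and Hoxa11 38.1 and 120 against 21.4 and 68.9 (0.81, SE 0.19). Hoxd10 gave 57.2 and 60.3 against 32.5 and 39.7. Hoxa9 (0.36, adjusted p = 0.0973) and Hoxd9 (-0.62, adjusted p = 0.0985) did not pass. Without barcodes carrying duct or loop markers, Hoxa10, Hoxa11 and Hoxd11 differed by 0.12, 0.10 and 0.26, and none passed.

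Stromal genes were higher in uninduced than in all induced progenitors in 7 of 16, with a median of 0.71 (1 of 16 in DESeq2 and 0 of 11 without barcodes carrying duct or loop markers). Over all genes, 3.6% were higher and 5.71% lower in edgeR. Meis2 gave 762 and 433 CPM against 387 and 236 (0.92, SE 0.10), Meis1 71.0 and 58.5 against 31.6 and 34.9, Foxd1 32.1 and 15.7 against 13.9 and 4.81, and Col1a1 55.5 and 103 against 24.1 and 68.9. In the narrower comparison Meis2 differed by 0.23 (adjusted p = 0.978). Imprinted genes were higher in 5 of 13 and lower in 2, with Mest at 1432 and 1238 against 768 and 582 (1.0, SE 0.08) and H19 at 1039 and 559 against 1499 and 816 (-0.54, SE 0.08). Of 30 S phase genes 0 passed in edgeR and 0 in DESeq2, 1 had an unadjusted p under 0.05, and 1 of 30 G2 and M genes was lower.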

How the data were processed

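For each of the 4 libraries the authors deposited raw counts by gene and barcode, with at least 500 genes in every barcode. Bowtie2 2.2.7 and mm10 are named in the submitters' processing notes. Annotation, strand handling and collapse of molecular identifiers are not given in the sources used here. Members and lists were chosen with earlier results of these data known. The remaining barcodes were gated by the marker list with the highest summed UMIs relative to that list's total, where its sum was at least 3. Doublets were not removed, since Scrublet called 10 of 12399 barcodes, and leaving out the 5% with the highest scores was an alternative.

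Counts were summed per library and pool and tested by the robust quasi-likelihood test of edgeR 4.0.16 (R 4.3.3), after filterByExpr and TMM scaling and with the library as block because both pools come from 1 suspension, with Benjamini-Hochberg adjustment over all genes and a threshold of 0.05. The 8 genes of the rule stayed out of the tests. DESeq2 1.42.0 was the other tool. The edgeR test of pools was also run on simulated counts that did not copy the gating, and its outcome is not reported here. Named genes were, per direction, the 12 passing genes of largest log2 fold change that reached a mean of 50 CPM in the higher group with no overlap between libraries. Predicted, Rik, haemoglobin, mitochondrial, ribosomal protein and chrY genes and Xist entered counts only. Up to 4 members of each of 25 lists past the test, with the smallest p, and the targeted genes were added. Hes1, Bmp7, Hoxd8, Foxd1, Spry1, Pecam1, Nphs1 and the genes said to be named after their values were seen fall outside this rule. A few genes that met the rule are not reported here. Positions came from GENCODE vM21.

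Alternatives were no filter on low counts, no block, thinning, other mitochondrial, Cited1 and marker minimums, doublets, other denominators and each library left out. Chosen after seeing the data were thinning after gating, barcodes over 50000 UMIs left out, and induced barcodes, or both pools, without duct or loop markers.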

Additional observations from a re-analysis of the deposited data

How the results depend on the processing

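The lower share of uninduced progenitors in mutant libraries kept its direction and passed the test in every alternative with an edgeR or DESeq2 fit, with adjusted p from 5.33e-12 (DESeq2) to 0.0187 (thinned to 1000 UMIs). Leaving out each library in turn gave log2 fold changes from -10.9 to -7.62, where the lone library of a genotype is assumed to vary like the other genotype. With the replicate number as a replicate block it was -7.85 (adjusted p = 2.56e-07), but the labels do not say that a number pairs libraries. The exact permutation p was 0.333.

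Counts of genes moved more. Against other barcodes, 118 genes passed with no replicate block, 1124 in DESeq2, 895 when thinned to 2000 UMIs before gating and 1706 when thinned after gating. Against Cited1-zero progenitors these settings gave 0 (64 at an unadjusted edgeR p under 0.05), 3, 1 and 7, and at least 3 Cited1 UMIs gave 10. Against induced progenitors they gave 0 (677 unadjusted), 163, 0 (115 unadjusted) and 6, and induced barcodes without duct or loop markers gave 34 and both pools without them 39. Thinning leaves fewer genes to test.

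Of 1749 alternative values of 158 single-gene results, 1359 kept their direction and side of the threshold, 318 no longer passed, 1 newly passed, 64 without a test moved and 7 changed sign. Those were Fgfr2 against other barcodes (0.42 thinned before and 0.057 after gating), Fam132a (0.13), Egr1 (-0.77) and Cdkn1c (-0.10) against Cited1-zero progenitors, and Meis2 (-0.019) and Cdkn1c (-0.12) against induced progenitors, the last 5 thinned before gating. None of these passed, and the cause was not tested. Leaving out a wildtype library gives values with no test in the comparisons of pools. No paired analysis was possible because 0 and 2 mutant cells met the rule, for the genotype difference within uninduced progenitors, which was not run under any alternative.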
